A study of Mus musculus with 6 samples.

Results

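Cells that secrete large amounts of protein depend on the endoplasmic reticulum (ER), where new proteins are folded, and 10 genes of ER stress sensing and folding were followed here through the cell classes of mouse small intestinal organoids. The genes were Xbp1, Ern1, Ern2, Atf6, Hspa5, Hsp90b1, Pdia4, Sdf2l1, Creld2 and Txndc5, chosen by name, and all 10 were found among the 32285 gene rows of each of 6 single-cell count matrices. Organoids are crypt cultures grown from adult mouse small intestine that hold intestinal stem cells (ISC) and their absorptive and secretory progeny. Wild type (WT) organoids were collected at day 3 after vehicle (DMSO, -EIPA, 2 libraries) or 5 uM EIPA (+EIPA, 2 libraries), a small molecule inhibitor of sodium-proton exchange. The other 2 libraries, 1 each, came from an inducible CRISPR line in which doxycycline switches on Cas9 marked by EGFP, without (-Dox) or with 2 ug/mL doxycycline (+Dox), also at day 3. All libraries were sorted for live cells, but only the +Dox library was also gated on GFP, and the edited line derives from selected organoids, so gate, Dox and library cannot be told apart in that pair.

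When unfolded protein builds up in the ER, the membrane sensors IRE1 and ATF6 signal to the nucleus. IRE1alpha (Ern1), present in most cells, and IRE1beta (Ern2), known from mucus-producing epithelium, splice the mRNA of Xbp1 so that it encodes an active transcription factor, while ATF6 (Atf6) is cut from the membrane to become one. Their targets include the chaperones BiP (Hspa5) and GRP94 (Hsp90b1), the disulfide isomerases Pdia4 and Txndc5, the BiP cofactor Sdf2l1 and the disulfide isomerase-like Creld2. In the intestine, Goblet cells secrete mucins, Paneth cells secrete antimicrobial peptides and lysozyme, and Xbp1 is known to be needed for the secretory cells. A 3' count of mRNA does not separate spliced from unspliced Xbp1 and does not see cleaved ATF6, so the values below are levels of mRNA and not sensor activity.

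The promoters of 3 of these genes hold the ER stress response element (ERSE), the site through which ATF6 and XBP1 are known to act, and another holds the core of the UPR element bound by XBP1. Promoters of 8 of the 10 genes, taken from RefSeq on GRCm38.p6 as 250 bases before to 50 bases after each start site, were searched on both strands. The ERSE was spelled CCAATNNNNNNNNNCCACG, the ERSE II as ATTGG and CCACG with 1 free base between them, and the UPR element core as TGACGTGG, and no matches below overlapped each other. The ERSE was found in 39 of 32851 promoters of the same length (0.119%), among them Hspa5, Hsp90b1 and Creld2. The ERSE II stood in 12 promoters (0.0365%), none of them of these genes, and the UPR element core in 222 (0.676%), among them the third start site of Txndc5. The 4 promoters are shown 5' to 3' on the strand of the gene because they carry those letters, with the fixed letters of each match in capitals: Hspa5 at chr2:34771840-34772139 (plus strand, first base of the match at -65 from the start), Hsp90b1 at chr10:86705395-86705694 (minus strand, matches at -212 and -107), Creld2 at chr15:88819396-88819695 (plus strand, -126) and Txndc5 at chr13:38527865-38528164 (minus strand, -138). A match is a description of the sequence and not a measured site.
Hspa5: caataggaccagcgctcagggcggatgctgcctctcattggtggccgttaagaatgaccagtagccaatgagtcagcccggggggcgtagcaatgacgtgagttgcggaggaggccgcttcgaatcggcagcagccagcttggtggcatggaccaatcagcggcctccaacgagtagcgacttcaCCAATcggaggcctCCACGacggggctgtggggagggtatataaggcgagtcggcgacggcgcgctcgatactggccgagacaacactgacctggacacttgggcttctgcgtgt
Hsp90b1: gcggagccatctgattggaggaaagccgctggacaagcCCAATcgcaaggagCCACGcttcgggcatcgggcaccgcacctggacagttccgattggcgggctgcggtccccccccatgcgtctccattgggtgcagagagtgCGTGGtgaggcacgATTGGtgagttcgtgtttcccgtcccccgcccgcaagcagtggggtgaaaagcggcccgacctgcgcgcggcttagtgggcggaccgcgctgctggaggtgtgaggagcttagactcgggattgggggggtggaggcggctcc
Creld2: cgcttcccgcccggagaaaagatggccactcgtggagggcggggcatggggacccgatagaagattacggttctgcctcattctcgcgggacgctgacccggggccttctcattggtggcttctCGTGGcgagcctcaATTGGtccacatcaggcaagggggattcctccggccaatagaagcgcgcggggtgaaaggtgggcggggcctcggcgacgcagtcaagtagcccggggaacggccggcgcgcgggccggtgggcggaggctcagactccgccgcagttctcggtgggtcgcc
Txndc5: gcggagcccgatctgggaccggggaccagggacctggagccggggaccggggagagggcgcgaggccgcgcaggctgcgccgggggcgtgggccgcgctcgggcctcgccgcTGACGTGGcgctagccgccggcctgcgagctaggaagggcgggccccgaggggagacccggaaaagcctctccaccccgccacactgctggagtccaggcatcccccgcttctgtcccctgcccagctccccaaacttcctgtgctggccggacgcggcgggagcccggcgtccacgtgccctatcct

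After filtering, 87954 cells were kept, 12083 to 18211 per library, with 161670015 to 239368573 UMIs (unique molecular identifiers, each standing for 1 captured mRNA) per library. Pairs of libraries shared 33 to 78 cell barcodes, at most 0.563% of the smaller library. Clusters were made without the 10 genes and without the genes of the pathway lists below, 108 genes withheld in all. Those lists are given by title and some of their genes, not in full. Marker genes gave the clusters their names: 12658 ISC-like, 27787 proliferating, 17776 enterocyte-like (absorptive), 5918 Goblet-like, 5152 Paneth-like, 4243 enteroendocrine-like (EEC-like) and 1205 tuft-like cells. The remaining cells were in a regenerative cluster (1911 cells) and in unnamed clusters of 6039, 3621, 1643 and 1 cells. They were left out of the classes and entered only the values over all cells. Each class held the highest summed level of its own markers except the Goblet list, whose 15 genes summed to 21464 to 39761 CPM (UMIs per 1000000 UMIs of all genes in that class and library) in Goblet-like and 40664 to 63565 in Paneth-like cells, which share several of them. The 10 markers of immune, stromal and endothelial cells summed to at most 37.1 CPM in any class. The ISC-like cells of the groups came from different clusters. A cluster led by Olfm4, Gkn3 and Edn1 held 83.4% and 96.2% of them in -EIPA and 96.3% in -Dox, a cluster led by Gkn3 and Olfm4 with the DNA replication genes Mcm3 and Mcm4 held 90.6% and 96.3% in +EIPA, and a cluster led by Ifitm3 and Olfm4 held 94.1% in +Dox. Of the proliferating cells of +Dox, 75.4% were in a cluster led by Ifitm3 and histone genes that held 2 cells of -Dox. With each library clustered on its own, 90.6% and 70.7% of the ISC-like cells in -EIPA and 87.2% in -Dox kept that name. In the treated libraries fewer did, 63.0% and 56.8% in +EIPA and 55.3% in +Dox.

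Secretory cells of the mucus and antimicrobial types carried more mRNA of the ER folding genes than absorptive or stem cells. In Paneth-like cells all 10 genes were higher than in enterocyte-like cells and all 10 were higher than in ISC-like cells. In Goblet-like cells all 10 were higher than in ISC-like cells and 7 of 10 were higher than in enterocyte-like cells, the exceptions being Xbp1, Ern1 and Atf6. The widest gaps were those of the sensor Ern2 and the disulfide isomerase Txndc5. The test was edgeR's quasi-likelihood test on UMIs summed per library and class with the library as a block (n = 6 libraries), with Benjamini-Hochberg adjusted p below 0.05 over 13668 genes as the threshold. The background was high: 38.3% of all genes were higher in Paneth-like than enterocyte-like cells and 35.1% higher than in ISC-like cells, and for Goblet-like cells these shares were 37.3% and 28.3%. The shares of all genes that were lower were 36.4% and 33.5% for Paneth-like and 36.8% and 28.6% for Goblet-like cells in the same order. The median log2 difference over all genes lay between 0.01 and 0.05 in these 4 comparisons with TMM scaling (the trimmed mean of edgeR), and at 0.36, 0.06, 0.12 and -0.20 with library-size scaling for Goblet-like against enterocyte-like, Goblet-like against ISC-like, Paneth-like against enterocyte-like and Paneth-like against ISC-like cells. The members and lists were kept out of the clustering, yet genes that vary with them were not, so the classes are not wholly independent of them. The 10% of cells with the highest doublet score in each library made up 22.8% to 27.5% of Goblet-like and 9.29% to 16.4% of Paneth-like cells. The 21 Paneth markers summed to 10038 to 38853 CPM in Goblet-like against 839 to 3459 in enterocyte-like cells. Their part in the Goblet-like values was not tested.

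**Figure D1:**
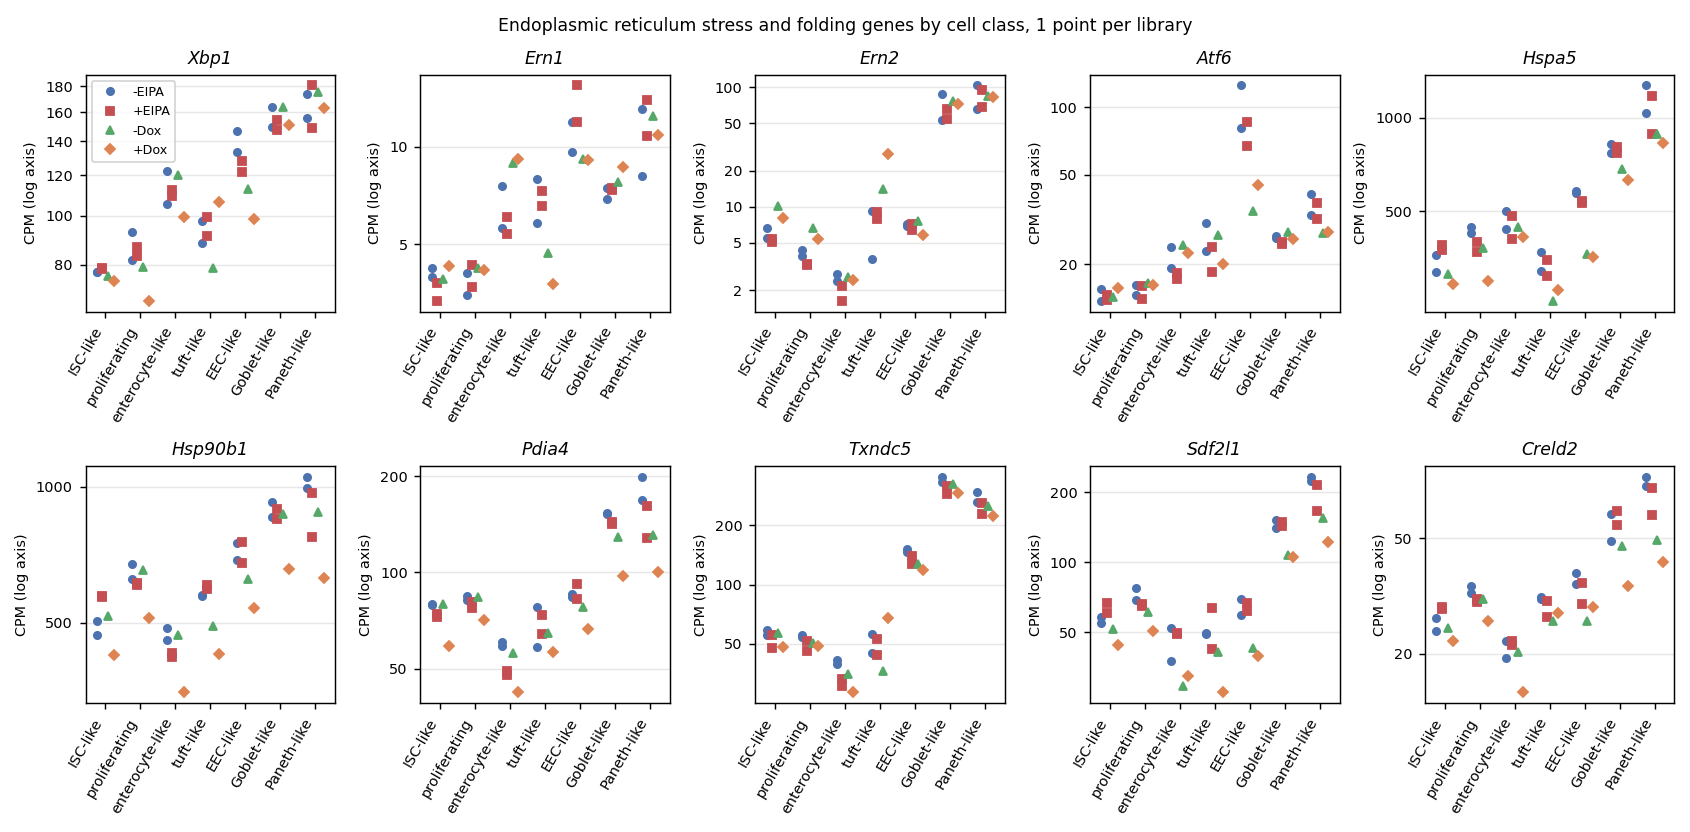
Levels of the 10 genes by cell class. Each panel is 1 gene, the y axis is CPM on a log scale, the x axis is the class, and each point is 1 of the 6 libraries, with a marker for each group. The Paneth-like and Goblet-like points of Ern2 (53.5 to 104) stand above those of every other class (1.63 to 27.6), while the Atf6 points are highest in EEC-like cells.

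Of the sensors, Ern2 separated the classes most. In Paneth-like cells Ern2 was counted at 104 and 66.1 CPM in the -EIPA libraries, 94.6 and 69.1 in +EIPA, 84.6 in -Dox and 83.6 in +Dox. In Goblet-like cells Ern2 stood at 87.7 and 53.5 CPM in -EIPA, 65.7 and 54.2 in +EIPA, 76.4 in -Dox and 73.3 in +Dox, below the Paneth-like value in 6 of 6 libraries although the ranges overlapped. No other named class came near: enterocyte-like cells held 1.63 to 2.72 CPM, ISC-like cells 5.04 to 10.1, EEC-like cells 5.83 to 7.65 and tuft-like cells 3.64 to 27.6. An unnamed cluster of 1643 cells, outside the classes, held Ern2 among its 20 leading genes, with Muc2, Ang4 and Mmp7. Against enterocyte-like cells, Ern2 was 5.11 ± 0.15 log2 units higher (± SE, adjusted p = 2.7e-27 by edgeR) in Paneth-like and 4.54 ± 0.14 (1.5e-25) in Goblet-like cells, which is 34.6-fold and 23.2-fold. Against ISC-like cells the log2 differences were 3.86 ± 0.13 and 3.28 ± 0.13. The spread among libraries of 1 class was wide for Ern2, with the -EIPA libraries alone differing from 66.1 to 104 CPM in Paneth-like cells.

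The share of cells with an Ern2 UMI followed the same order once depth was levelled. With each cell thinned to 2000 UMIs, 13.6% to 22.0% of Paneth-like and 11% to 18.2% of Goblet-like cells held at least 1 Ern2 UMI, against 0.28% to 0.72% of enterocyte-like cells. The part of free RNA in the droplets in these shares was not tested. Unthinned, the Goblet-like share was 45% to 71.2% and the enterocyte-like share 1.62% to 3.51%, at median depths of 10039 to 16789 and 10738 to 16831 UMIs per cell. The thinned share of EEC-like cells with Ern2 was 0.29% to 1.27%, a range that overlaps the enterocyte-like one, although the CPM was higher in EEC-like cells in 6 of 6 libraries.

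Ern1, which encodes the broadly expressed IRE1alpha, showed a shallower and different order. Its levels were 13.1 and 8.13 CPM in the -EIPA Paneth-like cells, 13.9 and 10.8 in +EIPA, 12.4 in -Dox and 10.9 in +Dox, and EEC-like cells overlapped them at 9.07 to 15.5 CPM. Goblet-like cells (6.92 to 8.66 CPM) overlapped enterocyte-like cells (5.38 to 9.16 CPM), and ISC-like (3.34 to 4.27 CPM) and proliferating cells (3.48 to 4.30 CPM) were lowest, overlapping each other. Ern1 was higher in Paneth-like than in enterocyte-like cells by 0.61 ± 0.11 log2 units (adjusted p = 1.2e-05 by edgeR) and higher than in ISC-like cells by 1.75 ± 0.12. In Goblet-like against enterocyte-like cells the difference was -0.24 ± 0.12 (adjusted p = 0.057), with a higher level in 3 of 6 libraries. Without the -EIPA 2 library that difference passed the threshold at -0.29 (adjusted p = 0.030), and without a filter on low counts at -0.27 (0.044).

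Atf6 was the only member with its highest median outside the Goblet-like and Paneth-like cells. EEC-like cells, which secrete hormones, held 125 and 80.7 CPM of Atf6 in -EIPA, 85.9 and 67.2 in +EIPA, 34.6 in -Dox and 45.1 in +Dox. The 4 WT libraries were above every Paneth-like value (27.5 to 41.0 CPM), and the 2 libraries of the CRISPR line lay within that range or just above it. The high level sat in 1 of the 4 EEC-like clusters, led by Chgb, Chga, Tac1 and Tph1, genes of serotonin-making enterochromaffin cells. In that cluster Atf6 reached 377 and 247 CPM in -EIPA, 220 and 205 in +EIPA, 91.8 in -Dox and 157 in +Dox, above the Neurog3-led progenitor cluster (27.3 to 40.7 CPM) in 6 of 6 libraries. Without it, the EEC-like level of Atf6 was 33.6, 38.6, 38.3, 31.5, 27.5 and 29.9 CPM over the 6 libraries in the same order, a range that overlaps the Paneth-like one. Clusters were set beside each other as a description, with no test.

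**Figure D2:**
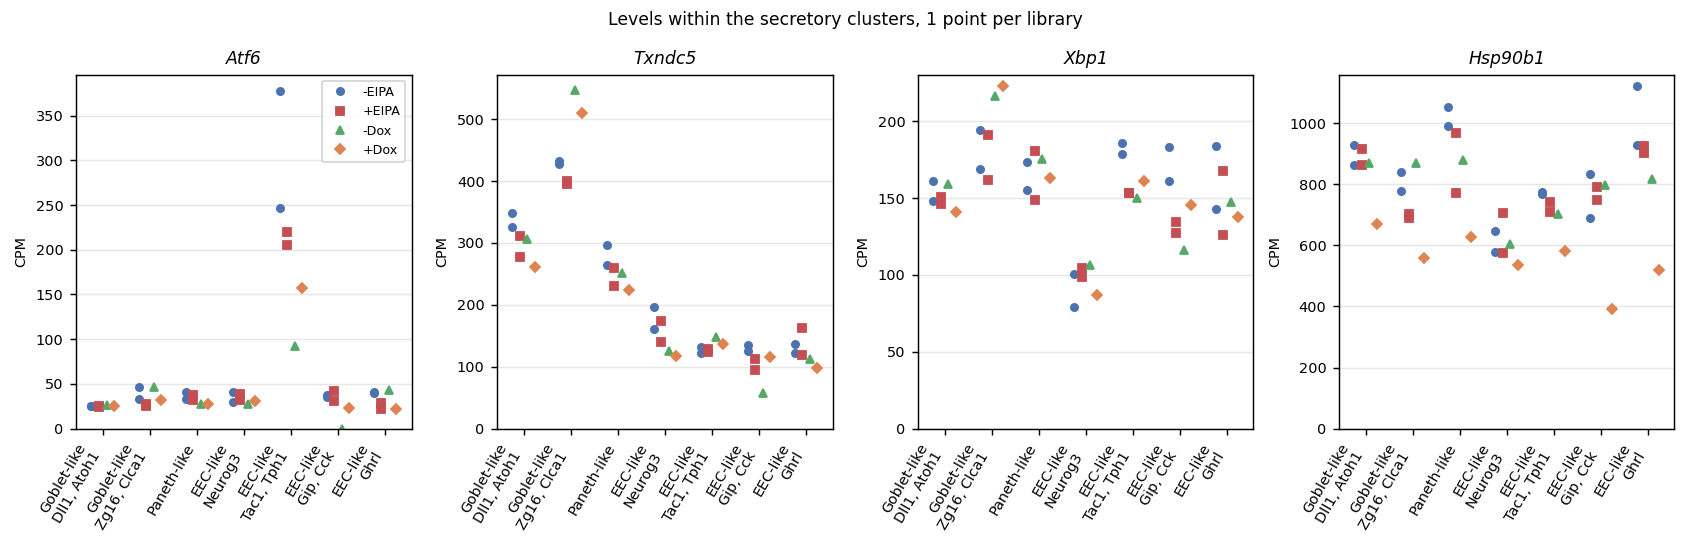
Levels of Atf6, Txndc5, Xbp1 and Hsp90b1 in the Goblet-like, Paneth-like and EEC-like clusters, named on the x axis by leading genes. The y axis is CPM from 0, and each point is 1 library with a marker for its group. Atf6 stands out in the Tac1 and Tph1 cluster, with a median of 212 CPM, and Txndc5 is highest in the Zg16 and Clca1 cluster, with a median of 430 CPM.

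In the tests across the class, Atf6 was higher in EEC-like than in enterocyte-like cells by 1.15 ± 0.14 log2 units (adjusted p = 1.2e-09 by edgeR) and higher than in ISC-like cells by 1.94 ± 0.14 (6.0e-15). In Paneth-like cells it was higher than in enterocyte-like cells by 0.58 ± 0.14 (0.00029) and than in ISC-like cells by 1.37 ± 0.14. Between Goblet-like and enterocyte-like cells the call for Atf6 depended on the scaling. The difference was -0.02 log2 units with a 95% interval of -0.29 to 0.25, and with library-size scaling it became 0.32 (adjusted p = 0.032 by edgeR). By CPM, Atf6 was higher in Goblet-like (24.5 to 27.8) than in enterocyte-like cells (17.3 to 24.4) in 6 of 6 libraries without overlap.

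Xbp1, the transcription factor downstream of IRE1, had its highest median in Paneth-like cells. Its Paneth-like levels were 173 and 156 CPM in -EIPA, 181 and 149 in +EIPA, 176 in -Dox and 163 in +Dox. Its Goblet-like levels, at 163, 150, 154, 148, 163 and 151 CPM in the same order, were lower in 6 of 6 libraries while the ranges overlapped. Of the Goblet-like cells 84.0% to 93.7% were in the cluster with Dll1 and Atoh1, so class levels are mostly those of that cluster. In the smaller Zg16 and Clca1 cluster Xbp1 was at 162 to 223 CPM (median 193), above the Paneth-like median of 168. EEC-like cells (98.2 to 147 CPM) and enterocyte-like cells (99.4 to 122 CPM) overlapped each other, and ISC-like cells were lower at 74.1 to 78.8 CPM, without overlap with either. Xbp1 was higher in Paneth-like than in enterocyte-like cells by 0.50 ± 0.06 log2 units (adjusted p = 3.1e-09 by edgeR), and higher than in ISC-like cells by 1.33 ± 0.06 in Paneth-like and 0.95 ± 0.06 in Goblet-like cells. Between Goblet-like and enterocyte-like cells the call for Xbp1 rested on the scaling and on single libraries. The difference was 0.13 ± 0.06 (adjusted p = 0.056), although the CPM was 1.33 to 1.52 times higher in 6 of 6 libraries. It passed with library-size scaling (0.48), with DESeq2 (0.15) and without the -EIPA 1, +EIPA 1, +EIPA 2 or +Dox library (0.18 to 0.20).

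The lumenal chaperones BiP (Hspa5) and GRP94 (Hsp90b1) had their highest medians in Paneth-like cells, above Goblet-like cells in 6 of 6 libraries for Hspa5 and in 4 of 6 for Hsp90b1. Hspa5 was counted at 1270 and 1033 CPM in Paneth-like cells of -EIPA, 1176 and 888 in +EIPA, 889 in -Dox and 828 in +Dox. Its Goblet-like levels of 823, 773, 772, 802, 682 and 631 CPM lay below without overlap, and its enterocyte-like levels of 406 to 502 and ISC-like levels of 293 to 391 CPM lower still. In the Zg16 and Clca1 cluster of the Goblet-like cells Hspa5 was at 700 to 1046 CPM, a range that overlaps the Paneth-like one. Hspa5 was 2.13-fold higher in Paneth-like than enterocyte-like cells (1.09 ± 0.07 log2 units, adjusted p = 3.8e-17 by edgeR) and 1.31-fold higher in Goblet-like than enterocyte-like cells (0.39 ± 0.07, 4.0e-06). For Hsp90b1 the Paneth-like levels were 1052, 992, 968, 773, 879 and 628 CPM and the Goblet-like levels 857, 923, 848, 893, 871 and 656 CPM, 2 ranges that overlapped. Against enterocyte-like cells (351 to 488 CPM), Hsp90b1 was higher by 0.94 ± 0.06 log2 units in Paneth-like and by 0.60 ± 0.06 in Goblet-like cells, and these 2 values were close to those against ISC-like cells (1.00 and 0.67).

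The disulfide isomerase Txndc5 was the only member with its highest median in Goblet-like cells. Txndc5 stood at 354 and 331 CPM in the -EIPA Goblet-like cells, 319 and 290 in +EIPA, 324 in -Dox and 291 in +Dox. It was lower in Paneth-like cells (224 to 296 CPM) in 6 of 6 libraries, and lower again in EEC-like cells (119 to 153), ISC-like cells (47.6 to 58.7) and enterocyte-like cells (28.4 to 41.3), with no overlap between Paneth-like, EEC-like and ISC-like levels. Against enterocyte-like cells the difference was 2.86 ± 0.06 log2 units in Goblet-like, 2.81 ± 0.06 in Paneth-like and 1.34 ± 0.06 in EEC-like cells. In cells thinned to 2000 UMIs, Txndc5 was found in 45.5% to 53.7% of Goblet-like, 36.7% to 50% of Paneth-like, 24.8% to 27.4% of EEC-like and 4.90% to 7.64% of enterocyte-like cells. Pdia4 had its highest median in Paneth-like cells, above Goblet-like cells in 5 of 6 libraries, at 199 and 168 CPM in -EIPA, 161 and 128 in +EIPA, 130 in -Dox and 100 in +Dox, with Goblet-like levels of 97.2 to 153 CPM overlapping them. Pdia4 was higher than in enterocyte-like cells by 1.41 ± 0.06 in Paneth-like and 1.03 ± 0.06 in Goblet-like cells.

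The cofactors Sdf2l1 and Creld2 moved alike, with a larger gap in Paneth-like than in Goblet-like cells. Sdf2l1 was counted at 234, 224, 216, 166, 155 and 122 CPM in Paneth-like cells and at 140, 152, 143, 149, 107 and 105 CPM in Goblet-like cells, in the same order of libraries. Enterocyte-like cells held 29.3 to 51.9 CPM of Sdf2l1 and ISC-like cells 44.2 to 67.0, so that the absorptive level lay at or below the stem cell level. The differences against enterocyte-like cells were 2.08 ± 0.09 log2 units in Paneth-like (adjusted p = 1.5e-22 by edgeR) and 1.34 ± 0.09 in Goblet-like cells. Creld2 held 81.5, 75.9, 74.4, 60.1, 49.2 and 41.5 CPM in Paneth-like and 49.0, 60.4, 55.5, 62.1, 47.2 and 34.1 CPM in Goblet-like cells, against 14.7 to 22.2 in enterocyte-like cells. Its differences were 1.57 ± 0.08 and 1.00 ± 0.08. In both genes the libraries of the CRISPR line gave the lowest Paneth-like values, below all 4 WT libraries.

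**Figure D3:**
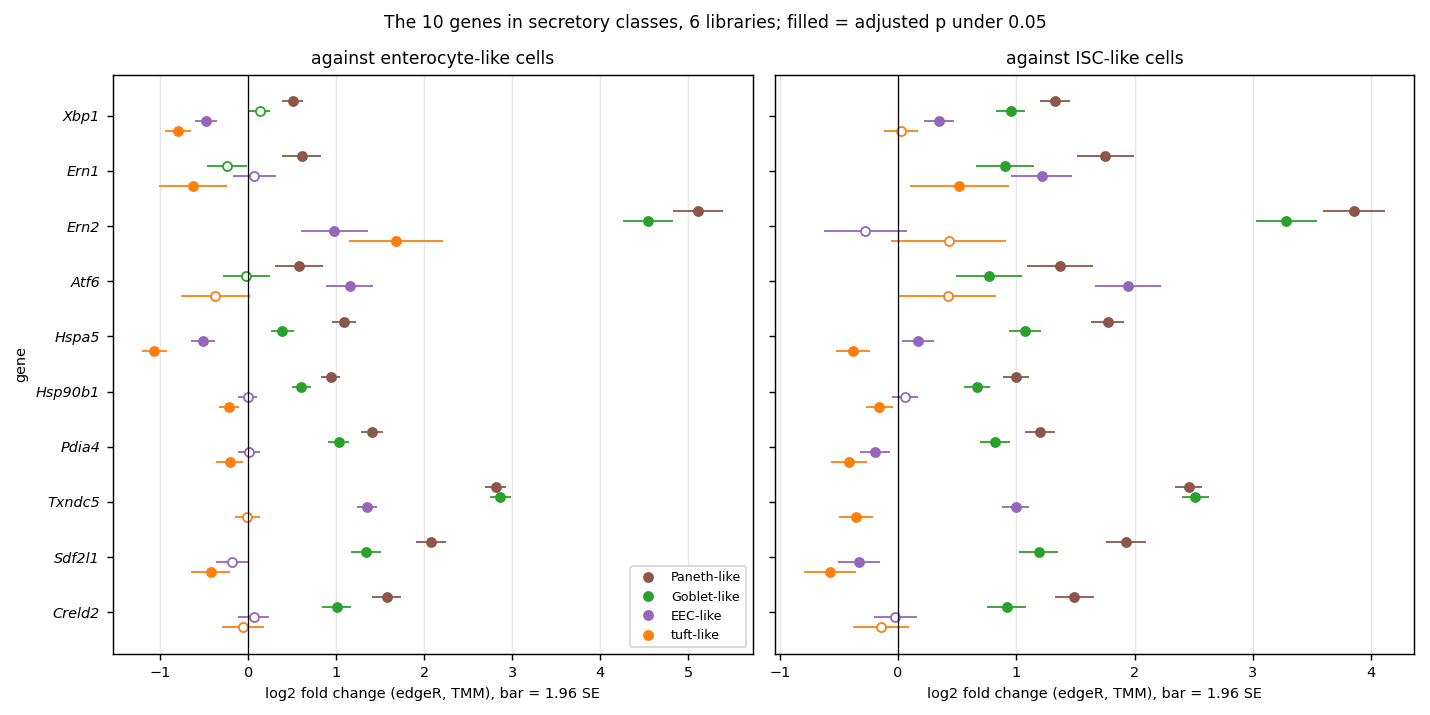
Log2 difference of each gene in Paneth-like, Goblet-like, EEC-like and tuft-like cells against enterocyte-like (left) and ISC-like cells (right), by edgeR over 6 libraries. Bars are 95% intervals and filled points passed the adjusted threshold. The Paneth-like and Goblet-like points lie above 0 except Ern1 (-0.24) and Atf6 (-0.02) in Goblet-like against enterocyte-like cells, while EEC-like and tuft-like points fall on both sides.

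In hormone-secreting and chemosensory cells the count of genes higher depended on the scaling. Against enterocyte-like cells it was 3 for EEC-like and 1 for tuft-like cells with TMM, and 9 and 5 with library size. By CPM, 7 of 10 genes were higher in EEC-like than in enterocyte-like cells in 6 of 6 libraries. The share of all genes higher in this way was not counted. Library size, which CPM uses, moved the median of all genes upward, so these counts are not read as a trait of the members. With TMM, in EEC-like against enterocyte-like cells 3 of 10 genes were higher (background 42.1%) and 2 were lower (36.8%): Txndc5 at 1.34, Atf6 at 1.15 and Ern2 at 0.98 log2 units, and Hspa5 at -0.52 and Xbp1 at -0.48. Against ISC-like cells 5 were higher (39.6%) and 2 lower (32.8%), the largest being Atf6 at 1.94 and Ern1 at 1.22, with Sdf2l1 at -0.33 and Pdia4 at -0.20 below 0. Tuft-like cells held 1 gene higher than enterocyte-like cells (Ern2, 1.68, background 30.6%) and 6 lower (33.4%), led by Hspa5 at -1.07 and Xbp1 at -0.80. The 21 Paneth markers summed to 1353 to 13391 CPM in tuft-like and 2149 to 7214 in EEC-like against 839 to 3459 in enterocyte-like cells, and the 15 Goblet markers to 805 to 3487, 2763 to 4673 and 596 to 1570 CPM, with 0 of either list at 0. Their part in the Ern2 values was not tested. Without the 10% of cells with the highest doublet score in each library, which made up 3.51% to 22.6% of tuft-like and 13.9% to 23.9% of EEC-like cells, Ern2 was 2.68 and 1.43 log2 units higher than in enterocyte-like cells. Against ISC-like cells 1 was higher in tuft-like cells (Ern1, 0.52, adjusted p = 0.042 by edgeR, background 25%) and 5 were lower (26%), led by Sdf2l1 at -0.57. The Ern1 call was lost without any 1 of the 4 WT libraries (adjusted p = 0.066 to 0.23), and without the +Dox library 3 members in place of 6 were lower in tuft-like than in enterocyte-like cells. The lower calls depend on the scaling too: with library size in place of TMM the median of all genes moved from 0.09 to 0.72 in EEC-like against enterocyte-like cells and from 0.01 to 0.56 in tuft-like against enterocyte-like cells, and Hspa5 (0.12) and Xbp1 (0.15) in EEC-like against enterocyte-like cells, like Sdf2l1 (0.01) and Pdia4 (0.14) in EEC-like against ISC-like cells, turned to above 0. Among all genes in EEC-like against enterocyte-like cells, 5748 were higher and 5029 lower with TMM, and 9396 and 2396 with library size. EEC-like and tuft-like cells were also the shallowest, at median depths of 5094 to 6714 and 5341 to 7936 UMIs per cell, and the part of depth in these values was not tested.

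Within the Goblet-like cells the 10 genes did not move as 1 group. Of the 2 Goblet-like clusters, one led by Zg16 and Clca1, genes of mucus-filled cells, held more Txndc5 than the larger cluster that also carried Dll1 and Atoh1, genes of early secretory cells, with medians of 430 and 308 CPM and a higher level in 6 of 6 libraries. Xbp1 (193 and 150 CPM), Hspa5 (948 and 760) and Atf6 (32.5 and 25.3) were likewise higher in 6 of 6 libraries. GRP94 went the other way: Hsp90b1 was higher in the Zg16 and Clca1 cluster in 0 of 6 libraries (740 and 867 CPM), and Pdia4 (115 and 146) and Sdf2l1 (109 and 143) in 1 of 6. Among EEC-like clusters, the Tac1 and Tph1 cluster held more Xbp1 (157 and 99.4 CPM), Hspa5 (585 and 388) and Hsp90b1 (726 and 591) than the Neurog3 cluster in 6 of 6 libraries, but not more Txndc5 (130 and 150, higher in 2 of 6). Against the Gip and Cck cluster it held more Xbp1 in 5 of 6 libraries (157 and 140 CPM), Hspa5 in 3 (585 and 617) and Hsp90b1 in 2 (726 and 769). The Gip and Cck cluster held only 11 cells in -Dox and 14 in +Dox.

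Over the 42 sums of 7 classes in 6 libraries, the members most alike were Pdia4 and Creld2 (Pearson r of log2 CPM 0.95), and those least alike Atf6 and Sdf2l1 (0.20). Xbp1 and Hspa5 stood at 0.90. Of 13845 genes compared, those whose levels ran most like Xbp1 were Prrc1 (0.941), Tram1 (0.938), Txndc11 (0.931), Mia3 (0.918) and Hspa13 (0.914). Those most like Ern2 were Cracr2a (0.960), Creb3l4 (0.956), Agr2 (0.948), Atoh1 (0.942) and Mlph (0.942), and those most like Hspa5 were Hdlbp (0.948), H13 (0.944), Manf (0.930), Edem2 (0.928) and Hspa13 (0.922). Tram1 serves the translocon, Agr2 is a disulfide isomerase needed for mucin, Atoh1 is the secretory lineage factor, Manf is a lumenal chaperone cofactor and Edem2 acts in ER degradation. These correlations describe the sums, which share libraries and classes, and carry no test.

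Other genes of ER folding, secretion and degradation were counted in the same way, to be read against the shares of all genes: 37.3% higher and 36.8% lower in Goblet-like against enterocyte-like cells, 38.3% and 36.4% in Paneth-like against enterocyte-like cells, 28.3% and 28.6% in Goblet-like against ISC-like cells, and 35.1% and 33.5% in Paneth-like against ISC-like cells. Of the ER folding list (20 genes), all 20 were higher in Goblet-like than in ISC-like cells and all 20 in Paneth-like cells, with medians of 0.97 and 1.41 log2 units. Against enterocyte-like cells 13 were higher and 3 lower in Goblet-like cells (median 0.48), and 16 higher and 2 lower in Paneth-like cells (median 1.01), led by Agr2 at 4.82 and 4.77 and by the isomerase Pdia5 at 3.12 and 3.47. Of the ER translocation and glycosylation list (25 genes), 19 were higher in each of the 2 classes than in enterocyte-like cells, with 4 lower in Goblet-like and 1 lower in Paneth-like cells (medians 0.35 and 0.74). The signal peptidase subunit Spcs3 led these at 1.10 and 2.15. Of the ER degradation list (15 genes), 11 were higher and 2 lower in Paneth-like against enterocyte-like cells (median 0.76), and 5 higher and 4 lower in Goblet-like cells (median -0.01), with Derl3 at 5.41 and 3.13. In Goblet-like cells with library-size scaling the ER degradation count became 12 higher and 2 lower. The shares of all genes above were made with TMM and do not apply to that count, since the median of all genes moved upward.

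Of the PERK and ATF4 list, 7 genes were tested against enterocyte-like cells, and 1 was higher and 5 lower in Goblet-like cells (median -0.47), with 2 higher and 3 lower in Paneth-like cells (median -0.22), where the shares are close to those of all genes. Trib3 fell by 2.38 and 2.27 log2 units, and Chac1, a glutathione-degrading ATF4 target, by 1.84 and 1.78, relative to enterocyte-like cells, while Eif2ak3, which encodes PERK, was 0.82 higher in Paneth-like cells. Against ISC-like cells 4 of the 7 PERK and ATF4 genes were higher in Goblet-like and 5 of 7 in Paneth-like cells, and 0 were lower (medians 0.58 and 0.89). Of the ER membrane bZIP factors and processing list (8 genes), 5 were higher and 3 lower in Goblet-like against enterocyte-like cells (median 0.38), and 5 higher and 2 lower in Paneth-like cells (median 0.52), while against ISC-like cells 6 and 7 were higher and 0 lower (medians 1.32 and 1.51). Creb3l4 (4.34 and 5.04) and Bhlha15 (4.25 and 5.98), a factor of professional secretory cells, were far higher in Goblet-like and Paneth-like than in enterocyte-like cells, and Creb3l3 (-4.04 and -4.24), a factor of lipid-handling cells, far lower. Of the cytosolic chaperones, 10 of 14 were lower than in ISC-like cells in Goblet-like and 10 of 14 in Paneth-like cells, with 3 and 1 higher (medians -0.39 and -0.58). Against enterocyte-like cells 7 were higher and 4 lower in Goblet-like cells (median 0.08), and 2 higher and 5 lower in Paneth-like cells (median -0.08). Of the 8 immediate early and dissociation genes, which respond to handling stress, 5 were higher and 2 lower in Paneth-like than enterocyte-like cells (median 0.43), and 4 higher and 3 lower in Goblet-like cells (0.04), and the part of handling in the class differences was not tested.

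With the libraries taken as unpaired, EIPA left no member past the threshold in any class. In ISC-like cells this rested on that choice, since members passed there with the replicate number as a block, as given in the closing section. The comparison asks whether EIPA changed these mRNAs, with 2 libraries against 2, and edgeR called 0 of 10 members in ISC-like, proliferating, enterocyte-like, Goblet-like, Paneth-like, EEC-like and tuft-like cells and in all cells together. Among all genes it called 0.0162%, 0%, 0.167%, 0.0753%, 0.122%, 0.0652%, 0.0205% and 0% in the same order. DESeq2 also called 0 members in each, and at an unadjusted p under 0.05 edgeR had 4 members in ISC-like cells and 0 in the other 7 fits, where 13.4%, 5.44%, 17.8%, 8.04%, 4.11%, 2.49%, 3.57% and 10.1% of all genes had such a p in the order above. The approximate 95% intervals for EIPA ran from -0.18 to 0.19 log2 units for Xbp1 and from -0.61 to 0.26 for Ern2 in Goblet-like cells. In Paneth-like cells they ran from -0.13 to 0.38 and from -0.33 to 0.46. They were set from the SE by the normal distribution, which makes them too narrow for 2 libraries against 2. Changes of that size or somewhat larger could be missed.

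The 4 members with an unadjusted p under 0.05 were all chaperones or cofactors, and their estimates in ISC-like cells were above 0. Hsp90b1 was counted at 504 and 469 CPM in -EIPA and at 574 and 571 in +EIPA ISC-like cells, groups that did not overlap, a difference of 0.31 ± 0.09 log2 units (adjusted p = 0.29 by edgeR). Hspa5 stood at 363 and 319 CPM in -EIPA and 391 and 376 in +EIPA (0.25 ± 0.10, adjusted p = 0.37). Sdf2l1 stood at 58.1 and 54.5 CPM and at 67.0 and 60.2 (0.25 ± 0.09, adjusted p = 0.34), and Creld2 at 26.6 and 24.1 and at 28.6 and 28.9 (0.27 ± 0.09, adjusted p = 0.35). In all 4 genes both +EIPA libraries were above both -EIPA libraries, which largely follows from picking them by p on these same libraries. The share of all genes that separate in this way was not counted. The 2 groups of libraries drew on different ISC-like clusters, and the part of this in the gaps was not tested. The cluster with Mcm3 and Mcm4 held 203 and 93 cells of -EIPA, and the cluster with Edn1 held 186 and 67 of +EIPA. Clusters that split so by treatment cannot show what EIPA did within a cluster, so the levels below are a description. In the cluster with Mcm3 and Mcm4, Hsp90b1 stood at 573 and 579 CPM in -EIPA and 580 and 576 in +EIPA, and in the cluster with Edn1 at 479 and 458 in -EIPA and 479 and 485 in +EIPA. Hspa5 stood at 395 and 362 CPM in -EIPA and 397 and 378 in +EIPA in the former cluster, and at 352 and 315 and 317 and 351 in the latter, where Sdf2l1 (55.8 and 53.5, then 39.1 and 23.5) and Creld2 (23.6 and 23.4, then 22.3 and 18.1) were lower in +EIPA, on 10 to 56 UMIs. In the former cluster Creld2 was at 35.0 and 31.2 CPM in -EIPA and 29.1 and 29.2 in +EIPA, and Sdf2l1 at 64.3 and 64.5 and at 68.8 and 60.9. Over all ISC-like cells Xbp1 was at 77.3 and 77.5 CPM in -EIPA and at 78.4 and 78.8 in +EIPA. Its approximate 95% interval was -0.06 to 0.26 log2 units. The sensors Ern1 (4.21 and 3.95, then 3.34 and 3.80 CPM) and Ern2 (6.59 and 5.46, then 5.40 and 5.04 CPM) were lower in +EIPA without overlap, neither past the threshold.

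In the secretory classes the EIPA intervals spanned 0. For Ern2 the difference was -0.17 ± 0.22 log2 units in Goblet-like and 0.07 ± 0.20 in Paneth-like cells. The approximate 95% intervals were -0.61 to 0.26 and -0.33 to 0.46. For Hspa5 the intervals were -0.17 to 0.25 in Goblet-like and -0.34 to 0.25 in Paneth-like cells. The median over the 10 members ran from -0.06 in Paneth-like and proliferating cells to 0.07 in ISC-like cells, against -0.02 to 0.01 over all genes. Atf6 in EEC-like cells was 125 and 80.7 CPM in -EIPA and 85.9 and 67.2 in +EIPA, overlapping groups with a difference of -0.37 ± 0.20 (adjusted p = 1 by edgeR).

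**Figure D4:**
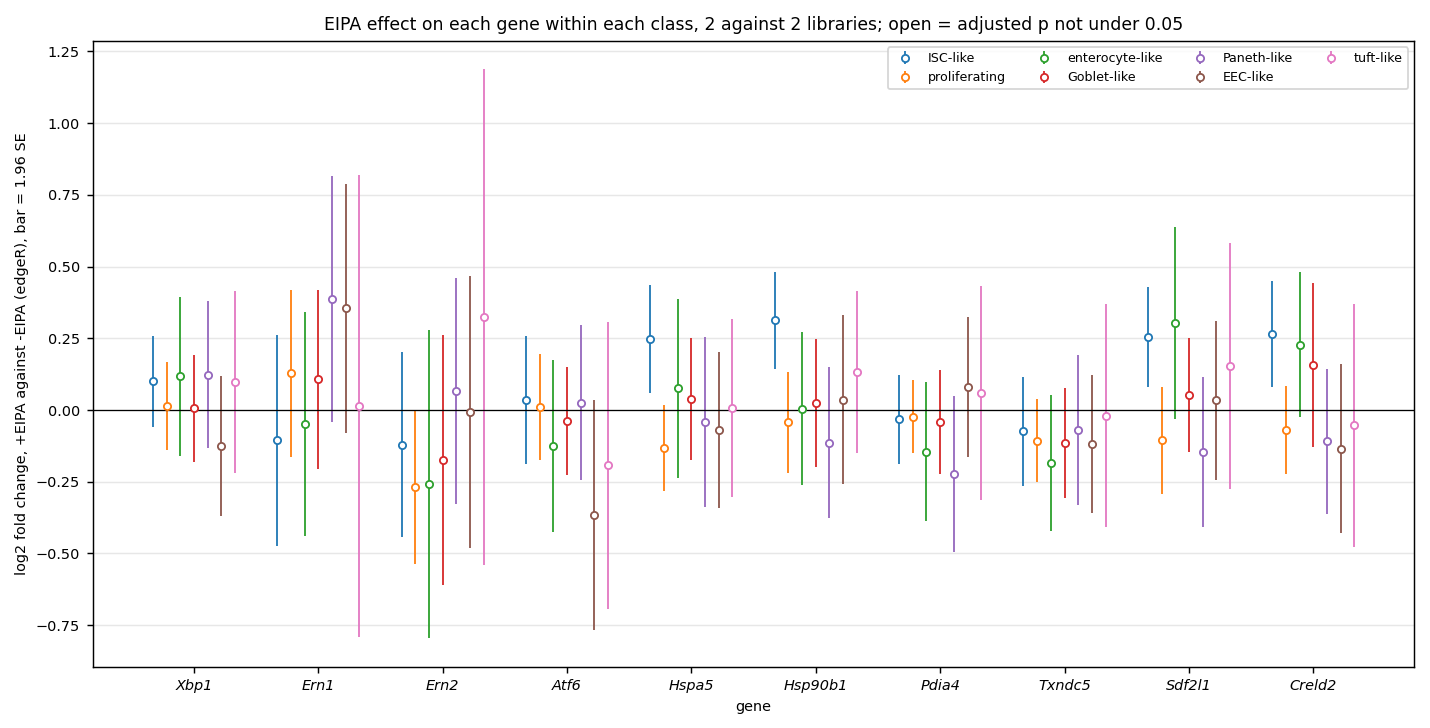
EIPA against vehicle for the 10 genes in each cell class. The x axis is the gene, the y axis the edgeR log2 difference of 2 +EIPA against 2 -EIPA libraries, and the colour the class. Bars are approximate 95% intervals from the SE, which are too narrow for so few libraries. With the libraries taken as unpaired, 0 of 10 genes passed the adjusted threshold in any class. In ISC-like cells Hsp90b1, Creld2, Sdf2l1 and Hspa5 lie between 0.25 and 0.31.

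Other lists under EIPA gave 0 calls for ER folding, ER degradation, ER translocation and glycosylation, PERK and ATF4, ER membrane bZIP factors and processing, and cytosolic chaperones in each fit. The medians of the ER membrane bZIP factors and processing list ran from -0.19 in ISC-like to 0.26 in all cells, and those of the cytosolic chaperones from -0.16 in enterocyte-like to 0.10 in ISC-like cells. In enterocyte-like cells the former list summed to 293 and 226 CPM in -EIPA and 348 and 320 in +EIPA, and the latter to 4736 and 5074 and to 3950 and 3508, without overlap. This was not particular to them. The chaperone sums were also lower without overlap in Goblet-like, Paneth-like, tuft-like and all cells, but overlapped in ISC-like, proliferating and EEC-like cells. The bZIP sums were higher without overlap over all cells (151 and 133, then 185 and 176) but lower in ISC-like cells (107 and 113, then 92.7 and 89.9). The share of all genes that separate so was not counted. The PERK and ATF4 medians lay above 0, from 0.12 in tuft-like to 0.64 log2 units in proliferating cells, with Chac1 at 2.80 ± 0.33 (adjusted p = 0.13 by edgeR) and Trib3 at 1.24 ± 0.28 (0.25) in ISC-like cells, neither past the threshold. Of the 8 immediate early and dissociation genes, 1 was lower in +EIPA in ISC-like (Fosb, -2.72, against 0.0162% of all genes called), 2 in enterocyte-like (Fosb, -2.43, and Fos, -1.43, against 0.167%) and 1 in Goblet-like cells (Fos, -0.98, against 0.0753%), and 0 passed in the other 5 fits. The list's median was -0.92 in ISC-like and -0.55 in Paneth-like cells. Their summed level over all cells was 1178 and 1420 CPM in -EIPA, 680 and 664 in +EIPA, 1353 in -Dox and 727 in +Dox. The part of these genes in the members' values was not tested.

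Whether EIPA acted differently in a secretory class than in absorptive or stem cells was tested as an interaction over the 4 WT libraries. Members were called in 2 of 8 such tests, 1 of 10 in each: Hsp90b1 in Paneth-like against ISC-like cells and Sdf2l1 in Paneth-like against enterocyte-like cells. Hsp90b1 went from 1052 and 992 CPM in -EIPA to 968 and 773 in +EIPA Paneth-like cells while it went from 504 and 469 to 574 and 571 in ISC-like cells, a difference of -0.44 ± 0.09 log2 units between the effects (adjusted p = 0.010 by edgeR), where the ISC-like side compares different clusters as given above. Sdf2l1 went from 234 and 224 to 216 and 166 CPM in Paneth-like cells and from 37.4 and 51.9 to 49.0 and 49.7 in enterocyte-like cells, a difference of -0.52 ± 0.14 (adjusted p = 0.029). The background of genes called was 2.65% for Paneth-like against ISC-like and 5.53% for Paneth-like against enterocyte-like cells, so 1 of 10 members is not far from it.

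Both calls were lost when single libraries were left out. Hsp90b1 lost its call without -EIPA 2 (adjusted p = 0.16), +EIPA 1 (0.092) or +EIPA 2 (0.28) at differences of -0.44, -0.50 and -0.38, and when each library was clustered on its own (-0.22, 0.82). Sdf2l1 lost its call without -EIPA 1 (-0.27, 0.18), +EIPA 1 (-0.63, 0.071) or +EIPA 2 (-0.37, 0.42) and with library-size scaling (-0.42, 0.14). In +EIPA 2, Paneth markers took 25.5% of the UMIs of Paneth-like cells against 16.4% to 17.8% in the other WT libraries. This lowers the CPM of every other gene there. The calls used TMM scaling and not CPM, and the part of that share left in them was not tested. In the other 6 tests 0 of 10 members passed: Goblet-like against enterocyte-like (background 5.73%) and ISC-like cells (1.85%), EEC-like against enterocyte-like (6.58%) and ISC-like cells (0.81%), and tuft-like against enterocyte-like (2.08%) and ISC-like cells (0.306%). At an unadjusted p under 0.05 these had 1, 2, 3, 4, 0 and 1 members, against 20.4%, 16%, 20.9%, 11.9%, 15% and 9.87% of all genes. For Goblet-like against enterocyte-like cells the approximate 95% intervals ran from -0.37 to 0.03 log2 units for Xbp1 and from -0.50 to 0.57 for Ern2. Differences of that size could be missed. DESeq2 called 1 member in 2 of these 6, Goblet-like against ISC-like and EEC-like against enterocyte-like cells. The shares of all genes above belong to edgeR and do not apply to those 2 calls.

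In the CRISPR line 2 of the 9 members with enough UMIs, GRP94 (Hsp90b1) and Pdia4, had a ratio of +Dox to -Dox below 1 in all 7 classes, as did 14.1% of 7497 genes. The intervals of both spanned 1 in tuft-like cells, while BiP and Ern2 changed little in the mucus and antimicrobial classes. There was 1 library on each side, so no test of the condition exists, and the 95% Poisson intervals cover counting error only. Hsp90b1 was 879 CPM in -Dox and 628 in +Dox Paneth-like cells, a log2 ratio of -0.48 (-0.53 to -0.44), and its ratios were -0.41 in Goblet-like, -0.42 in enterocyte-like, -0.35 in proliferating and -0.29 in ISC-like cells. Pdia4 was 130 and 100 CPM in Paneth-like cells (-0.38), with -0.41 in Goblet-like and enterocyte-like and -0.43 in ISC-like cells. The clusters behind these classes differed between the 2 libraries, as given above for ISC-like cells, and in enterocyte-like cells the cluster led by Reg3a and Apoc3 went from 21.7% of the class in -Dox to 52.3% in +Dox. Within that cluster Hsp90b1 was at 386 CPM in -Dox and 298 in +Dox and Pdia4 at 45.8 and 31.5, and in the cluster led by Gstm3 and Fabp1 Hsp90b1 was at 463 and 442 and Pdia4 at 56.1 and 58.0. In the next 2 enterocyte-like clusters by size Hsp90b1 was at 554 and 593 CPM in -Dox and 291 and 392 in +Dox. In the ISC-like cluster with Edn1 (1650 and 49 cells) Hsp90b1 was at 513 and 424 CPM and Pdia4 at 79.1 and 85.1, the latter on 62 UMIs in +Dox. Creld2 gave log2 ratios of -0.47 in Goblet-like and -0.46 in enterocyte-like cells, and Sdf2l1 was 155 and 122 CPM in Paneth-like cells (-0.35) but 107 and 105 in Goblet-like cells (-0.03).

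Hspa5 gave log2 ratios of -0.10 in Paneth-like, -0.11 in Goblet-like and -0.35 in proliferating cells. Within the histone-led proliferating cluster that both libraries share (3033 and 239 cells), Hspa5 was at 353 CPM in -Dox and 345 in +Dox, and Hsp90b1 at 609 and 511. Ern2 gave -0.02 in Paneth-like (84.6 and 83.6 CPM) and -0.06 in Goblet-like cells (76.4 and 73.3 CPM), both with intervals spanning 0, and Xbp1 -0.11 and -0.12. Counted with a limit of 1.25-fold, set after the values were seen, 1 of 10 members was lower in ISC-like cells (19% of all genes), 2 in proliferating (11.3%), 3 in enterocyte-like (31.3%), 3 in Goblet-like (15.8%), 3 in Paneth-like (26.6%), 1 in EEC-like (12.8%), 3 in tuft-like (22.2%) and 2 in all cells (16.9%). These shares are near the background in most classes. The median over the members was -0.18 in Paneth-like cells against -0.17 over all genes, and -0.25 against -0.01 in proliferating cells, which came mostly from different clusters in the 2 libraries.

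**Figure D5:**
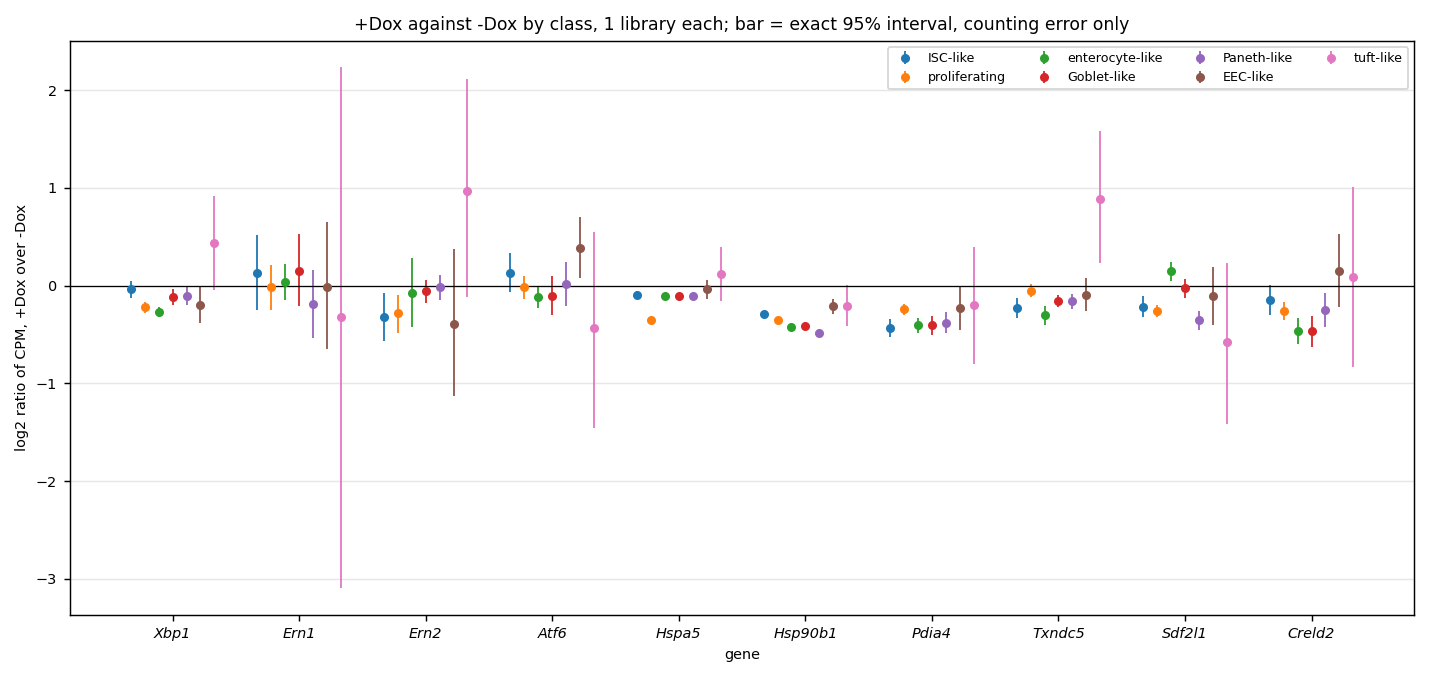
Log2 ratio of +Dox to -Dox levels for the 10 genes in each cell class, with 1 library on each side. The x axis is the gene, the y axis the log2 ratio of CPM, the colour the class, and bars are exact 95% intervals that cover counting error only. Hsp90b1 and Pdia4 lie below 0 in each class, from -0.48 to -0.20.

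The 2 libraries differed in more than Dox. The +Dox cells were deeper, with a median of 17020 UMIs per cell against 11952, and Paneth markers took 21.6% of the UMIs of +Dox Paneth-like cells against 13.5% in -Dox. With TMM scaling the members lower by 1.25-fold fell to 0 of 10 in Paneth-like and in ISC-like cells and to 1 of 10 in enterocyte-like cells. The genes lower by that fold among all genes fell too, from 3088 to 1225 of 11623 in Paneth-like cells. They went from 2381 to 1347 of 12545 in ISC-like and from 4082 to 2998 of 13057 in enterocyte-like cells. Between the same libraries, cytosolic chaperones had median log2 ratios of -0.32 in Paneth-like and -0.53 in enterocyte-like cells, and the immediate early and dissociation list -0.85 and -1.07, while the PERK and ATF4 list had medians of 0.15 and -0.16. The part of the gate, the depth and the handling genes in the lower Hsp90b1 and Pdia4 was not tested.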

How the data were processed

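Single cells were measured in 6 libraries made with the 10x Genomics 3' v3.1 chemistry. The authors deposited UMI counts per gene and cell, made with Cell Ranger 6.1.2 on mm10 (GRCm38) per the submitters' processing notes, and these deposited counts are raw, not normalized. Cells with at least 1000 genes and at most 20% mitochondrial UMIs were kept, 12083 to 18211 per library. All libraries were clustered together on Pearson residuals of 3000 variable genes without the 10 members and the pathway lists. The settings were 45 principal components, 20 neighbours and Leiden resolution 0.8 (scanpy 1.11.5 and igraph 0.11.9). No step to align the libraries was added, and on average 55.3% of a cell's neighbours came from its own library. A cluster was named from at least 2 markers of a class among its 20 leading genes by fold and at least 3 raised in all. UMIs were summed per library and class and tested with edgeR 4.0.16 (quasi-likelihood test, TMM scaling, its filter on low counts, Benjamini-Hochberg adjusted p under 0.05). The class comparisons used all 6 libraries with the library as a block. The EIPA comparisons used 2 against 2 libraries, and the interaction of class and EIPA the 4 WT libraries. The 95% intervals of edgeR differences were set from the SE by the normal distribution. They are narrower than the quasi-likelihood test would give, most so for the 2 against 2 comparisons. The 2 libraries of a WT group came from separate organoid preparations per the study's methods, and neither these nor the labels say that a replicate number marks a preparation shared by both groups. With 1 library each, -Dox and +Dox were compared by the ratio of CPM with exact 95% intervals. Members and listed genes needed a UMI in each library, while the shares of all genes also needed a sum of at least 20 UMIs. The steps were tested on simulated data, with a spread between libraries set in advance. Of 1.5-fold EIPA changes, 38.5% were recovered in Goblet-like and 31.5% in Paneth-like cells, and of 2-fold changes 92.5% and 93%. For the difference of the EIPA effect in Goblet-like against enterocyte-like cells, 11% were recovered at 1.5-fold, with 15.4% of calls false, and 83.5% at 2-fold.

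All 10 members were counted in every comparison. Of the other lists, counts, medians and up to 3 of the genes with the largest changes are given, though not for every comparison. The members and lists were chosen with earlier results of these data known. Ddit3 of the PERK and ATF4 list has 2 gene IDs and was not used here. Scrublet's automatic threshold called 0 doublets in 2 libraries and 8.42% to 15.0% in the others, so cells were not removed in the main analysis, and removing the 10% of cells with the highest score in each library was an alternative. Other alternatives were DESeq2 1.42.0, library-size scaling, no filter on low counts, WT libraries alone, each library left out, stricter cell limits (2000 genes, 10% mitochondrial), clustering of each library on its own, the replicate number as a block and, chosen after seeing the data, the removal of a low-depth enterocyte-like cluster, TMM scaling of the Dox ratios and the 10% doublet limit. Promoters came from RefSeq (GRCm38.p6). Doses came from the study's methods. The gene targeted in the CRISPR line is not reported here.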

Additional observations from a re-analysis of the deposited data

Results flagged for a closer look

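The effect of EIPA differed between Paneth-like and another class for 1 of 10 members in each of 2 of the 8 tests of the difference itself, in which 5.53% (against enterocyte-like cells) and 2.65% (against ISC-like cells) of all genes were called. For Sdf2l1 the +EIPA against -EIPA difference in Paneth-like cells minus that in enterocyte-like cells was -0.52 log2 units (SE 0.14, adjusted p = 0.029 by edgeR, 2 libraries against 2). For Hsp90b1 that in Paneth-like minus that in ISC-like cells was -0.44 (SE 0.09, adjusted p = 0.010 by edgeR). Neither gene passed for EIPA within Paneth-like cells alone, where the differences were -0.15 and -0.11, and the call was lost without -EIPA 1, +EIPA 1 or +EIPA 2 for Sdf2l1 (differences of -0.27, -0.63 and -0.37) and without -EIPA 2, +EIPA 1 or +EIPA 2 for Hsp90b1 (-0.44, -0.50 and -0.38). The ISC-like cells came mostly from different clusters in -EIPA and +EIPA. The cause was not tested.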

How the results depend on the processing

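A change of sign was counted as a reversal only where the value passed the threshold in either fit. All 14 reversals came from library-size scaling, which moved the median of all genes upward in EEC-like and tuft-like cells, and the cause beyond that was not tested. They were Atf6 at 0.32 in Goblet-like against enterocyte-like cells; in EEC-like against enterocyte-like cells Xbp1 at 0.15, Hspa5 at 0.12, Hsp90b1 at 0.62 and Sdf2l1 at 0.45; in EEC-like against ISC-like cells Pdia4 at 0.14, Sdf2l1 at 0.00801 and Creld2 at 0.32; in tuft-like against enterocyte-like cells Hsp90b1 at 0.32, Pdia4 at 0.33, Sdf2l1 at 0.12, Creld2 at 0.49 and Txndc5 at 0.54; and Hsp90b1 at 0.0945 in tuft-like against ISC-like cells. In the class comparisons of Goblet-like and Paneth-like cells the counts of members called stayed within 1.5 times under each alternative.

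Under library-size scaling the members higher than in enterocyte-like cells went from 3 to 9 in EEC-like and from 1 to 5 in tuft-like cells, and those lower from 2 to 0 and from 6 to 2. Against ISC-like cells those lower went from 2 to 0 in EEC-like and from 5 to 1 in tuft-like cells, and those higher in tuft-like cells from 1 to 4. With WT libraries alone, 3 members were lower in tuft-like than enterocyte-like cells and 2 were higher than in ISC-like cells. That last count of 1 became 3 with DESeq2, 2 without doublets, and 0 with no filter on low counts, with strict limits and with each library clustered on its own. The counts here carry no background, since the shares of all genes given earlier for these comparisons belong to the main fit. Library-size scaling also moved the median of all genes upward, so its counts are not read as a trait of the members.

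For the EIPA interaction, members called went from 1 to 0 in Paneth-like against enterocyte-like cells with library-size scaling, strict limits or separate clustering and to 2 with no filter. In Paneth-like against ISC-like cells they went from 1 to 2 with DESeq2, 4 with no filter and 0 with separate clustering. The shares of all genes given earlier belong to the main fit, so the counts in this paragraph carry no background. From 0 they went to 1 in Goblet-like against ISC-like cells with DESeq2 or no filter, in EEC-like against enterocyte-like cells with DESeq2 and in EEC-like against ISC-like cells with no filter. Leaving out 1 library gave 0 to 1 calls in Goblet-like against enterocyte-like, Goblet-like against ISC-like, Paneth-like against enterocyte-like and EEC-like against enterocyte-like cells, 0 to 3 in Paneth-like against ISC-like and 0 to 4 in EEC-like against ISC-like cells (the upper ends without -EIPA 1), and 3 to 6 members lower and 0 to 1 higher in tuft-like against enterocyte-like and ISC-like cells.

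With the replicate number as a block, 4 members passed for EIPA in ISC-like cells instead of 0 (Hspa5, Hsp90b1, Sdf2l1 and Creld2, all higher). Of the 12360 genes tested there, 1209 were higher and 928 lower in place of 1 and 1. No call on members changed in the other 7 fits. The ISC-like cells of the 2 groups came mostly from different clusters. Neither the labels nor the methods say that a number marks a shared preparation, and 2 pairs are too few to decide it, although same-numbered libraries deviated together (r = 0.21 to 0.74 over classes and all cells).

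Of members lower by 1.25-fold in +Dox, TMM scaling left 0 in ISC-like, 1 in enterocyte-like, 0 in Paneth-like and 1 in all cells. Among all genes it left 1347 of 12545, 2998 of 13057, 1225 of 11623 and 2231 of 15463 in the same order. Without doublets there were 2 in ISC-like, 5 in Paneth-like and 2 in EEC-like cells, with strict limits 2 in ISC-like and 0 in EEC-like cells, and with separate clustering 0 in ISC-like cells. Among all genes these were 2393 of 12447, 2793 of 11324 and 1852 of 10952 without doublets. With strict limits they were 2394 of 12532 and 1541 of 11387, and with separate clustering 1364 of 12091. Tuft-like cells, the rarest class, numbered 57 to 413 per library, and the part of this in their values was not tested.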
